A study of Mus musculus with 48 samples.

Results

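The IGHV5 family is the group of mouse heavy-chain variable (V) genes that begins the V cluster next to the diversity (D) genes. Its members were taken by name, as every sequence whose V gene was IGHV5-2, IGHV5-4, IGHV5-6, IGHV5-9, IGHV5-9-1, IGHV5-12, IGHV5-15, IGHV5-16 or IGHV5-17. These 9 genes of the 148 IGHV genes named in the libraries held 2469 of 37638 distinct clonotypes of the lacrimal gland (LG) and 235314 of 3154791 distinct clonotypes of the spleen. A clonotype was the combination of V gene, J gene and HCDR3 amino acid sequence, HCDR3 being the loop of the heavy chain that spans the V-D-J joint. The 12 other names of the IGHV5 family in the libraries were not members. Of these only IGHV5S21 had more than 46 sequences, with 1077, and its frequent unmutated stretch was identical to that of IGHV5-9-1.

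A heavy-chain V region is built in the developing B cell by joining 1 V, 1 D and 1 J gene, so the V gene sets the first and second hypervariable loops and the start of HCDR3. The D-proximal V genes are known to be joined early and often, and those of the distal end join after the locus has contracted. The naive B cell then carries IgM and IgD without mutation, and class switching to IgG or IgA and somatic hypermutation follow on antigen contact. IgA plasma cells are the usual antibody-secreting cells of the lacrimal gland.

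The libraries came from C57BL/6 mice, 1 LG library and 1 spleen library from each of 24 mice. The NOD-FMT group, 10 mice, received ampicillin, vancomycin and metronidazole in the drinking water and then, by gavage, the fecal supernatant of 30 NOD.B10.H2b donor mice, which were older than 20 weeks and had autoimmune dry eye disease. The PBS-T group, 9 mice, followed the same schedule with PBS, and the NC group, 5 mice of the same cohort, was not treated. Each mouse was a separate animal, so that p-values below measure the spread between mice.

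Libraries were filtered for identical nucleotide sequences present in 3 or more mice of a tissue, which removed a median of 1.06% of LG counts and 8.24% of spleen counts. After this filter an LG held 560 to 17213 clonotypes (median 882.5), of which 31 to 1167 were of the family. A spleen held 23002 to 593820 clonotypes, of which 1550 to 49513 were of the family. The LG of PBS-T mouse 5 had 17213 clonotypes, and no other LG had more than 2504. IgA made up 94.6 to 98.7% of LG counts in the NOD-FMT group and 88.6 to 97.8% in the NC group, but 13.9% in PBS-T mouse 9, 42.3% in PBS-T mouse 2, 72.4% in PBS-T mouse 8 and 76.9% in PBS-T mouse 3. The filter removed the most, 66.6% and 39.8% of counts, from the spleen of PBS-T mouse 6 and the LG of PBS-T mouse 5. In whole-tissue RNA, fewer cells of a type and less RNA per cell cannot be told apart.

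On chromosome 12 (GRCm38, GENCODE M21, minus strand) the members lie between 113578504 and 113859670, a stretch of 281 kb. It holds 18 of the 113 functional V genes, namely the 9 members, 8 IGHV2 genes and IGHV5-12-4, together with 6 IGHV5 pseudogenes. No functional V gene lies nearer to the D genes. IGHV5-2 (chr12:113578504-113578990) lies 53.2 kb from IGHD3-1, IGHV5-4 (chr12:113597446-113597977) 72.1 kb, IGHV5-6 (chr12:113625506-113625956) 100.2 kb and IGHV5-9 (chr12:113661769-113662293) 136 kb. IGHV5-12 (chr12:113702124-113702578) follows at 177 kb and IGHV5-9-1 (chr12:113736111-113736630) at 211 kb. The 3 most distant members are IGHV5-15 (chr12:113826646-113827129) at 301 kb, IGHV5-16 (chr12:113838526-113839010) at 313 kb and IGHV5-17 (chr12:113859149-113859670) at 334 kb. Each gene has 2 exons, and the sequenced part is the V exon, which codes for the antibody and holds no untranslated region.

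The V regions of the most used member, IGHV5-17, and of the least used and most D-proximal member, IGHV5-2, are shown because the other members fall between them in use. They are those of the GENCODE transcript that contains the most frequent unmutated stretch of 250 bases of each gene in the libraries, from the base where the best-fitting PCR primer begins, and capitals mark the codons of the first and second hypervariable loops (CDR1 and CDR2). In a library the first bases lie under the V primers and can be those of a primer. The best-fitting of the 35 primers of the set had 0 mismatches to IGHV5-12 and IGHV5-16 and 1 mismatch to each of the other 7 members, and it was not the same primer for all 9.
IGHV5-17: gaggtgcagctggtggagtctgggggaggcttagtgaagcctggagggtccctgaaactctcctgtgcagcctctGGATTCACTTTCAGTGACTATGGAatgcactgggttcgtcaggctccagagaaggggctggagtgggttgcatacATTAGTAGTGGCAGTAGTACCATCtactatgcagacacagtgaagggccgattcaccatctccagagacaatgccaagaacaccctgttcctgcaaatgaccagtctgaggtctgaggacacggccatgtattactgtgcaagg
IGHV5-2: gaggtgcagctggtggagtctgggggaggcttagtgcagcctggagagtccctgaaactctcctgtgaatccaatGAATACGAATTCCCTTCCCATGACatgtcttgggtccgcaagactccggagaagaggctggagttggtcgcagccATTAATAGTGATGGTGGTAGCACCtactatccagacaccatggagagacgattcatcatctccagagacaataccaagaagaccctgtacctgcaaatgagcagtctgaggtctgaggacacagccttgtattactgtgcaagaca
The V stretch was 294 bases long in IGHV5-17 and 296 in the others, and both loops spanned 24 bases in each member. Identity between members was highest for IGHV5-4 and IGHV5-6, 95.3% with 14 differing bases, and lowest for IGHV5-2 and IGHV5-15, 79.8% with 60 differing bases. The mean identity to the other members was lowest for IGHV5-16 (83.3%), IGHV5-2 (83.8%) and IGHV5-15 (85.8%).

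The V ends differ in what they hand to HCDR3, and are shown for all members because HCDR3 is compared below. Capitals mark the bases inside HCDR3.
IGHV5-2: gccttgtattactgtGCAAGACA
IGHV5-4: gccatgtattactgtGCAAGAGA
IGHV5-6: gccatgtattactgtGCAAGACA
IGHV5-9: gccttgtattactgtGCAAGACA
IGHV5-12: gccatgtattactgtGCAAGACA
IGHV5-9-1: gccatgtattactgtACAAGAGA
IGHV5-15: gccatgtattactgtGCAAGACA
IGHV5-16: gccacgtattactgtGCAAGAGA
IGHV5-17: gccatgtattactgtGCAAGG
The germline end gave 8 bases to HCDR3 in 8 members and 6 bases in IGHV5-17. IGHV5-4, IGHV5-9-1 and IGHV5-16 shared the ending GAGA, 5 members shared the ending GACA, and the first codon of HCDR3 was ACA in IGHV5-9-1 and GCA in the other 8.

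The family was a steady part of the splenic repertoire, and a single gene, IGHV5-17, held about as much of it as the next 2 together. Over the 24 spleens the family made up 7.32 ± 0.79% of clonotypes (mean ± SD, lowest 5.95%, median 7.16%, highest 9.14%). IGHV5-17 made up 2.41 ± 0.49% (1.67, 2.25 and 3.81%), which was 32.8% of the family. IGHV5-4 followed with 1.33 ± 0.15% (1.00, 1.34 and 1.53%). The most used member was thus the one farthest from the D genes, and its lowest spleen was above the highest of each other member.

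IGHV5-6 made up 1.04 ± 0.20% of clonotypes (0.780, 0.997 and 1.53%) and IGHV5-16 made up 0.986 ± 0.10% (0.798, 0.988 and 1.173%). IGHV5-9-1 was at 0.587 ± 0.060% (0.447, 0.596 and 0.685%). No spleen had more than 0.530% of any of the remaining members. IGHV5-12 averaged 0.349%, IGHV5-9 averaged 0.346%, IGHV5-15 averaged 0.166%, and IGHV5-2, the nearest to the D genes, averaged 0.113 ± 0.019% (0.0609, 0.117 and 0.146%).

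This order held mouse by mouse at most steps. IGHV5-17 was above IGHV5-4 in 24 of 24 spleens, and IGHV5-4 was above IGHV5-6 in 22 of 24. IGHV5-16 was above IGHV5-9-1, IGHV5-9-1 above IGHV5-12, IGHV5-9 above IGHV5-15 and IGHV5-15 above IGHV5-2 in 24 of 24. IGHV5-6 and IGHV5-16 did not keep an order, with IGHV5-6 higher in 9 of 24, nor did IGHV5-12 and IGHV5-9, with IGHV5-12 higher in 14 of 24. Use did not follow distance from the D genes. IGHV5-15 and IGHV5-16, which are neighbours at 301 and 313 kb, stood at 0.166 and 0.986%.

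**Figure D1:**
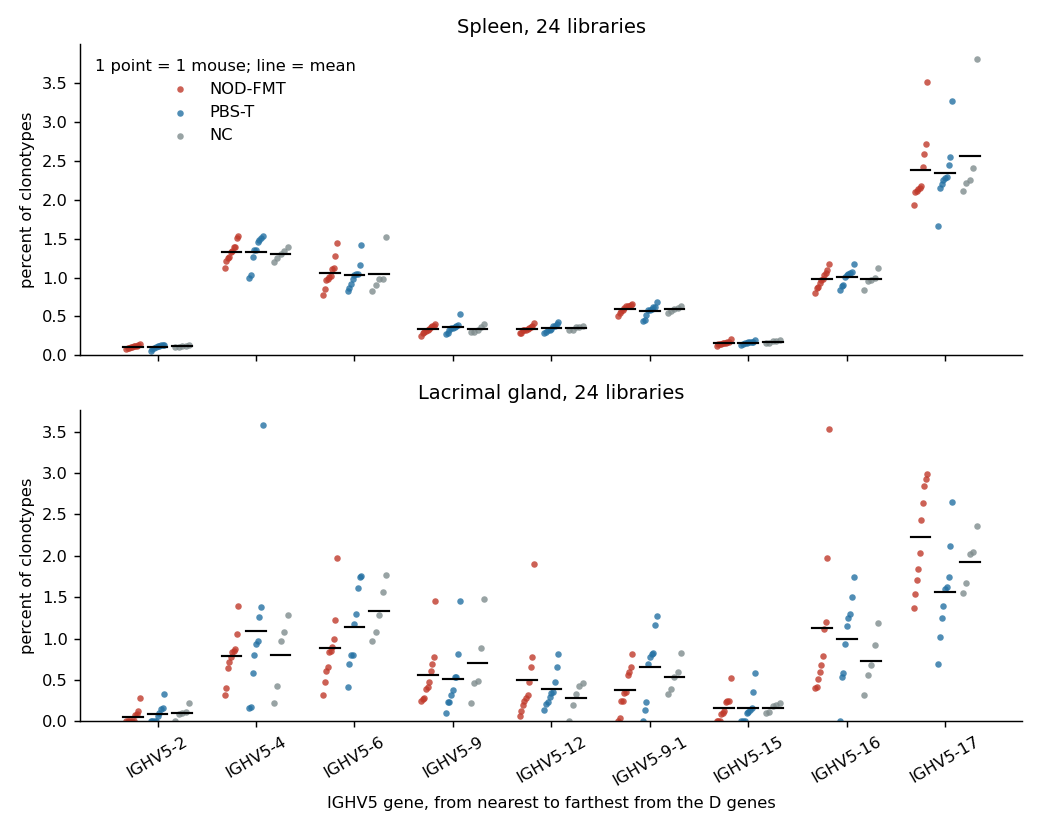
Percent of clonotypes (vertical axis) taken by each IGHV5 member, in the order of the genes from the D side, in the LG and in the spleen; each point is 1 mouse, coloured by group. IGHV5-17 is the highest in the spleen, at 1.67 to 3.81%, and the points of the 3 groups overlap for each member.

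The members also differed in how far mice spread. The coefficient of variation over spleens was 20.4% for IGHV5-17, 18.9% for IGHV5-6, 17.1% for IGHV5-2 and 16.7% for IGHV5-9, and 10.2 to 11.7% for the other 5. The spread from counting alone was 1.97, 2.98, 9.36 and 5.13% for the members named, in the same order, and was thus largest for IGHV5-2. NOD-FMT mouse 2, PBS-T mouse 7 and NC mouse 2 had the highest shares of IGHV5-17, at 3.51, 3.26 and 3.81%, and of IGHV5-6, at 1.45, 1.41 and 1.53%. Across the 24 spleens, IGHV5-17 and IGHV5-6 had a Spearman rho of 0.759, and 0.732 within unmutated IgM. IGHV5-17 had a rho of 0.783 with IGHV5-4 and −0.183 with IGHV5-9, the highest and lowest of the 36 pairs. These are descriptions over 24 mice, in which shares of 1 library add to a fixed sum and its depth is common to all members. With the number of clonotypes in the library, IGHV5-9 had a rho of −0.622 and IGHV5-2 one of 0.497. Among 78 genes with at least 20 clonotypes in each spleen, those with the pattern most like the summed family were IGHV2-3 (rho 0.649), IGHV2-6 (0.592) and IGHV2-6-1 (0.545).

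The next question was whether use of the family differed between the groups. It did not differ beyond the spread between mice in either tissue. In the LG its share of clonotypes was 6.69 ± 1.19% for NOD-FMT mice (4.95, 6.83 and 8.43%), 6.61 ± 1.39% for PBS-T mice (4.61, 6.78 and 8.81%) and 6.58 ± 1.56% for NC mice, which were at 5.50, 8.87, 7.53, 5.23 and 5.79%. The groups overlapped over most of their range. NOD-FMT minus PBS-T was 0.0774 percentage points (p = 0.896, exact two-sided permutation test, adjusted p = 0.966 over 6 comparisons).

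In the spleen the share was 7.30 ± 0.72% for NOD-FMT, 7.27 ± 0.83% for PBS-T and 7.46 ± 0.99% for NC, whose mice were at 6.77, 9.14, 6.74, 7.55 and 7.11%. NOD-FMT minus PBS-T was 0.0350 percentage points (p = 0.922, exact permutation test). The 4 differences from NC lay between −0.195 and 0.106 percentage points, and their exact permutation p-values between 0.702 and 0.966.

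Gene by gene, 0 of the 9 members were called between NOD-FMT and PBS-T in the LG by edgeR's quasi-likelihood test at an adjusted p of 0.05, where 4% of the 100 IGHV genes tested were called. Between NOD-FMT and NC it was 0 of 9 against 7% of all genes, and between PBS-T and NC 0 of 9 against 0%. In the spleen the counts were 0 of 9 against 0.885% of 113 genes for NOD-FMT and PBS-T, and 0 of 9 against 0% for both comparisons with NC. At an unadjusted p of 0.05 the count of members was also 0 in each of the 6 comparisons. Over all genes that count lay between 2 and 17. The median log2 fold change of NOD-FMT over PBS-T in the LG was −0.06 over members and −0.20 over all genes.

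In the LG, IGHV5-17 had the largest rise of the members in NOD-FMT over PBS-T, and its values overlapped between the groups. IGHV5-17 made up 2.23 ± 0.61% of clonotypes in NOD-FMT (1.37, 2.24 and 2.99%), 1.57 ± 0.58% in PBS-T (0.692, 1.60 and 2.66%) and 2.05, 2.36, 2.02, 1.55 and 1.67% in the NC mice. Its log2 fold change of NOD-FMT over PBS-T was 0.51 (SE 0.28, edgeR adjusted p = 0.318). The largest change in either direction was that of IGHV5-9-1, −0.80 (SE 0.53, edgeR adjusted p = 0.394), followed by IGHV5-2 at −0.60 and IGHV5-4 at −0.54. In the spleen all 9 members lay between −0.10 and 0.07 on the same scale.

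The LG held the same genes as the spleen, with less order among them. IGHV5-4, IGHV5-6, IGHV5-9 and IGHV5-17 were found in all 24 LGs, IGHV5-12 and IGHV5-16 in 23, IGHV5-9-1 in 22, IGHV5-15 in 18 and IGHV5-2 in 13. IGHV5-17 again led, with 1.92 ± 0.61% of clonotypes (0.692, 1.79 and 2.99%), and was above IGHV5-6 in 20 of 24 LGs. IGHV5-6 was at 1.08 ± 0.47%, IGHV5-16 at 0.995 ± 0.72% and IGHV5-4 at 0.906 ± 0.68%. Below IGHV5-17 each member exceeded the next in this order in only 9 to 18 of 24 LGs, and IGHV5-2 and IGHV5-15 rested on 28 and 58 clonotypes in all.

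Within mice the family's share was lower in the LG than in the spleen, 6.64 against 7.32% of clonotypes. The difference was −0.683 percentage points (SD of the difference 1.23, n = 24), lower in 17 of 24 mice (p = 0.0116, sign-flip permutation test with 100000 resamples). It was lower in 6 of 10 NOD-FMT mice, 7 of 9 PBS-T mice and 4 of 5 NC mice, with exact sign-flip permutation p-values of 0.184, 0.156 and 0.188, the smallest possible for 5 mice being 0.0625. Over counts in place of clonotypes the difference was −1.173 (p = 0.384), and over clonotypes of at least 2 counts −0.201 (p = 0.535). Among IgA clonotypes alone the family was at 6.61 ± 1.71% in the LG and 6.69 ± 1.53% in the spleen, lower in 11 of 24 mice (difference −0.0755, p = 0.817, sign-flip permutation test).

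By gene, 3 of 9 members differed between LG and spleen, where 45.5% of the 123 genes tested did, 24.4% higher and 21.1% lower. IGHV5-4 fell from 1.33% of clonotypes in the spleen to 0.906% in the LG, lower in 21 of 24 mice (log2 fold change −0.68, SE 0.18, edgeR adjusted p = 0.00177). IGHV5-17 fell from 2.41 to 1.92%, lower in 19 of 24 mice (−0.35, SE 0.13, edgeR adjusted p = 0.0264), and its call was lost without PBS-T mouse 5 (−0.33, edgeR adjusted p = 0.052). IGHV5-9 rose from 0.346 to 0.573%, higher in 16 of 24 mice (0.60, SE 0.22, edgeR adjusted p = 0.0215), but was lower on counts (−0.50). Among IgA clonotypes 0 of 9 members were called, where 15.5% of 97 genes were (4.12% higher and 11.3% lower), and 0 of 9 at an unadjusted p of 0.05. Over counts in place of clonotypes, IGHV5-2, IGHV5-4, IGHV5-12 and IGHV5-17 were called for IgA. Between LG and spleen over all isotypes, counts added calls of IGHV5-2, IGHV5-6, IGHV5-9-1, IGHV5-12 and IGHV5-15. The shares of all genes called over counts are not given here, so these calls are not read as particular to the members.

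IgM sequences of the spleen were divided into those that matched their germline V gene in full and those with 1 or more mismatches, so that unmutated and mutated sequences of the same isotype could be compared. All 9 members took a smaller share of the mutated than of the unmutated IgM clonotypes. The family made up 8.29 ± 1.23% of unmutated IgM clonotypes (6.20, 8.01 and 11.005%) and 4.82 ± 0.69% of mutated ones (3.30, 4.72 and 6.18%). It was lower in the mutated set in 24 of 24 mice.

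The call covered 9 of 9 members, beside 76.4% of all 110 genes called and 51.8% called lower. IGHV5-17 fell from 2.75 ± 0.67% (1.92, 2.57 and 4.47%) to 1.43 ± 0.32% (0.864, 1.34 and 2.31%), lower in 24 of 24 mice (log2 fold change −0.94, SE 0.07, edgeR adjusted p = 6.18e-17). IGHV5-9-1 had the largest fall of the members, from 0.692 ± 0.076% (0.467, 0.706 and 0.788%) to 0.326 ± 0.080% (0.215, 0.309 and 0.468%), so that the sets touched only at their ends. Its log2 fold change was −1.11 (SE 0.07, edgeR adjusted p = 7.61e-18). IGHV5-4 had the smallest, from 1.47 ± 0.21% to 1.09 ± 0.22%, lower in 21 of 24 mice (−0.44, SE 0.07, edgeR adjusted p = 7.66e-07), and was at −0.07 over clonotypes of at least 2 counts (edgeR adjusted p = 0.505). The other 6 lay between −0.91 (IGHV5-15) and −0.74 (IGHV5-16).

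The median log2 fold change over members was −0.76, beside −0.22 over all genes. With TMM scaling the median of all genes moved to 0.05 and that of the members to −0.49, and 9 of 9 members were still lower. IGHV2 genes, of which 8 lie between the members, were mixed, with 4 of 12 higher and 7 lower. The 12 were not limited to those 8. Over all genes 24.5% were called higher and 51.8% lower. A mismatch can be a somatic mutation or an error of amplification or sequencing, which cannot be told apart in a single sequence. Of the family's unique spleen IgM sequences 82.4% had no mismatch, and 72.6% of those of all other genes.

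**Figure D2:**
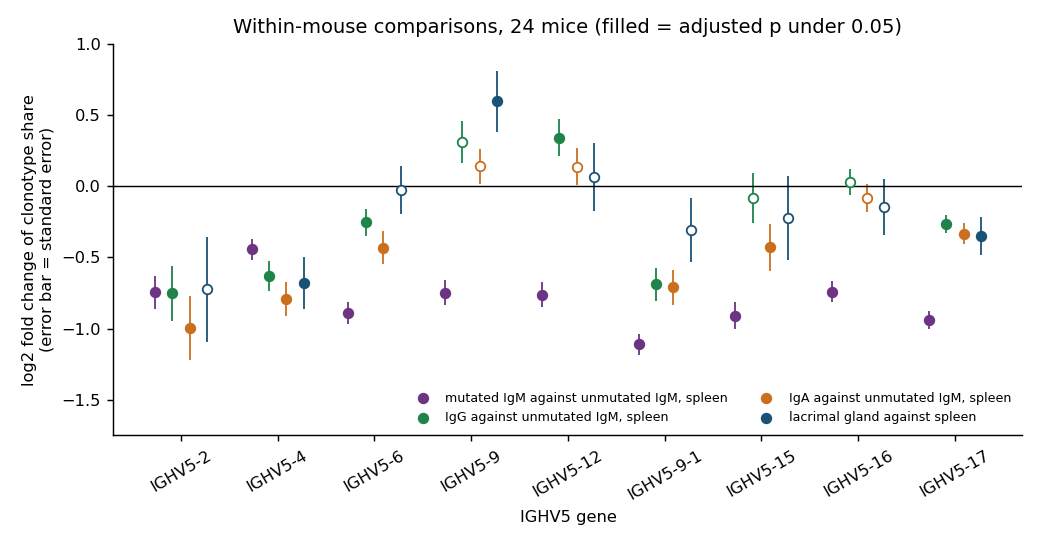
Log2 fold change with its standard error for each IGHV5 member within mice, for mutated against unmutated IgM, IgG against unmutated IgM and IgA against unmutated IgM in the spleen, and for the LG against the spleen; filled points passed an adjusted p of 0.05. All 9 members lie below 0 for mutated IgM, from −1.11 to −0.44, and IGHV5-12 lies above 0 for IgG at 0.34.

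Switched isotypes gave a more divided picture among the members. The family made up 7.26 ± 1.26% of IgG clonotypes of the spleen (5.01, 6.98 and 10.01%) and 6.69 ± 1.53% of IgA clonotypes (4.86, 6.60 and 11.7%). Both shares were below that of unmutated IgM in 19 of 24 mice. For IgG 6 of 9 members were called, where 65.7% of 102 genes were, 33.3% higher and 32.4% lower.

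IGHV5-2 fell from 0.119% of unmutated IgM to 0.0703% of IgG clonotypes (log2 fold change −0.75, SE 0.19, edgeR adjusted p = 0.000564). IGHV5-9-1 fell from 0.692 to 0.433% in 23 of 24 mice (−0.69, SE 0.11). IGHV5-4 fell from 1.47 to 0.998% in 21 of 24 mice (−0.63, SE 0.10). IGHV5-17 (−0.26, SE 0.06, edgeR adjusted p = 0.000294) and IGHV5-6 (−0.25, SE 0.10, edgeR adjusted p = 0.0203) fell less. IGHV5-12 rose, from 0.374 ± 0.040% (0.294, 0.383 and 0.453%) to 0.513 ± 0.24% (0.227, 0.486 and 1.23%), although only 14 of 24 mice were higher (0.34, SE 0.13, edgeR adjusted p = 0.0179). IGHV5-9 was at 0.402 ± 0.053% and 0.568 ± 0.53%, with 16 of 24 mice higher and 1 mouse, PBS-T mouse 2, at 2.94% (0.31, SE 0.15, edgeR adjusted p = 0.0575).

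For IgA 6 of 9 members were called, where 65% of 100 genes were (29% higher and 36% lower), and each of these 6 was lower. IGHV5-2 had the largest fall (−0.99, SE 0.23, edgeR adjusted p = 0.000186), followed by IGHV5-4 (−0.79, SE 0.12) and IGHV5-9-1 (−0.71, SE 0.12). IGHV5-6 and IGHV5-15 fell by 0.43 and IGHV5-17 fell by 0.33 on the log2 scale. IGHV5-9 and IGHV5-12, both at 0.14, and IGHV5-16, at −0.08, were not called. The median over members was −0.25 for IgG and −0.43 for IgA, beside −0.01 and −0.04 over all genes. With clonotypes of at least 2 counts IGHV5-6 was higher in IgG (0.40, edgeR adjusted p = 0.00544), and IGHV5-9 and IGHV5-15 were also called for IgG. For IgA 3 members were called in that setting, where IGHV5-6 (0.16) and IGHV5-15 (0.45) turned to higher values. Over counts in place of clonotypes, 2 members were called for IgG. The shares of all genes called in these alternative settings are not given here, so the counts of members are not read as results about the family.

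IgD marks mostly naive cells, and its members were given as levels without a test. The IgD set held sequences with and without mismatches, unlike the unmutated IgM set beside it. The family made up 6.44 ± 1.01% of IgD clonotypes (4.96, 6.29 and 8.89%), below its share of unmutated IgM in 24 of 24 mice. IGHV5-9 was at 0.402% of unmutated IgM and 0.162% of IgD clonotypes, lower in 24 of 24 mice. IGHV5-6 was likewise at 1.27% and 0.543%, lower in 24 of 24. IGHV5-16, at 1.03 and 1.16%, was higher in IgD in 19 of 24 mice, and IGHV5-2, at 0.119 and 0.134%, was higher in 21 of 24. IGHV5-6 and IGHV5-4, 95.3% identical in sequence, thus differed in their IgD share relative to IgM, IGHV5-4 being at 1.47 and 1.14%.

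Isotypes within the family were close to those of the other genes. Of spleen family clonotypes 80.3 ± 2.8% held IgM, 15.2% IgD, 3.78% IgG and 3.17% IgA, and those of the other genes 77.6, 17.6, 3.798 and 3.42%. A clonotype can hold several isotypes. The median share with IgG over mice ranged from 2.21% in IGHV5-9-1 and 2.24% in IGHV5-4 to 4.39% in IGHV5-9 and 4.93% in IGHV5-12. The mean of IGHV5-9, 6.33%, included 1 mouse at 38.0%. In the LG 73.2% of family clonotypes held IgA, beside 74.7% for the other genes.

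HCDR3 of the family was longer than that of the other genes before mutation. In unmutated spleen IgM the mean length was 11.8 ± 0.18 amino acids for the family (11.4, 11.9 and 12.1) and 11.4 ± 0.18 for the other genes. The difference of 0.428 amino acids (SD of the difference 0.0620) had the same sign in 24 of 24 mice (p = 1e-05, sign-flip permutation test, the smallest that 100000 resamples can give). It was not common to all members. IGHV5-15 was the longest at 12.3 ± 0.22, followed by IGHV5-6 at 12.2, IGHV5-16 and IGHV5-4 at 12.1, IGHV5-9-1 at 11.98, IGHV5-12 at 11.97 and IGHV5-9 at 11.9.

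IGHV5-17 and IGHV5-2 were at 11.4 ± 0.14 and 11.4 ± 0.22, the mean of the other genes. IGHV5-17 is the member whose germline end is shorter by 2 bases, while that of IGHV5-2 is of full length. In mutated spleen IgM the family was at 11.5 and the other genes at 11.2 amino acids. The 3 spleens with the highest shares of IGHV5-17, those of NOD-FMT mouse 2, PBS-T mouse 7 and NC mouse 2, each had a mean family length of 11.5 over all isotypes, the lowest of its group. The other genes in these 3 spleens were also the shortest of their groups, at 10.99, 11.24 and 11.04 amino acids.

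**Figure D3:**
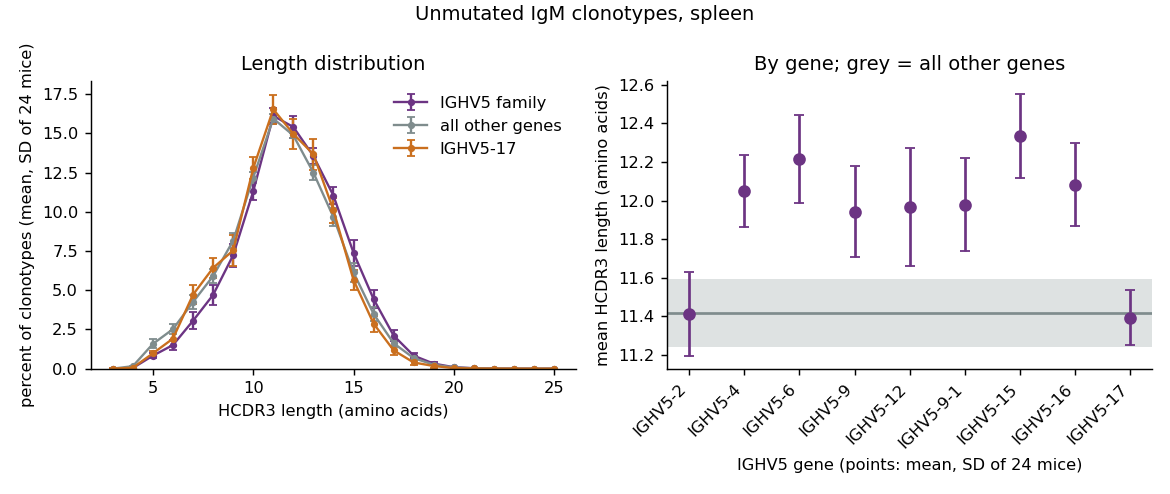
HCDR3 length in amino acids in unmutated spleen IgM, as the distribution of clonotypes over lengths for the family and the other genes and as the mean of each member with 1 point per mouse. The family's mean is 11.8 against 11.4, and IGHV5-17 and IGHV5-2 sit at 11.4.

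HCDR3 length of the family did not differ between NOD-FMT and PBS-T beyond the spread between mice. In the LG it was 11.8 ± 0.52 amino acids in NOD-FMT (10.8 to 12.5) and 12.2 ± 0.38 in PBS-T (11.4 to 12.6), a difference of −0.388 (p = 0.0842, exact permutation test, adjusted p = 0.112 over 4 tests). Over clonotypes of at least 2 counts the difference was −0.607 (p = 0.0117, exact permutation test, not adjusted). In the spleen the difference was 0.00207 amino acids (p = 0.978, exact permutation test).

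Members also differed in the J genes they were joined to, from IGHJ1, the J gene nearest to the D genes, to IGHJ4, the farthest. In unmutated spleen IgM the family used IGHJ1 in 17.97% and IGHJ4 in 29.2% of clonotypes, beside 15.3 and 26.3% for the other genes, and both were higher in 24 of 24 mice. IGHJ2, at 29.6 against 33.6%, was higher in the family in 0 of 24 mice, and IGHJ3, at 23.2 against 24.7%, in 2 of 24. No test was run on J genes.

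IGHV5-15 stood out by IGHJ4, which it used in 48.6 ± 5.7% of clonotypes (39.2, 48.6 and 65.2%), with IGHJ2 at 11.2%. IGHV5-16 used IGHJ3 in 11.2 ± 1.4% (8.86, 11.05 and 14.2%) and IGHJ1 in 26.8%. IGHV5-2 used IGHJ2 in 13.3 ± 5.2% and IGHJ3 in 33.3%, and IGHV5-12 used IGHJ2 in 17.4% and IGHJ4 in 37.8%. IGHV5-17 used IGHJ4 in 31.7%. The values for the other sets were pooled over libraries, while those above are means over mice. IGHV5-15 joined IGHJ4 in 44.2 to 50.2% of its clonotypes in the spleen sets, and in 53.4% of its 58 LG clonotypes. IGHV5-16 joined IGHJ3 in 10.7 to 11.9% in the spleen sets and in 14.1% in the LG, where the other genes were at 21.5 to 24.6%. IGHV5-12 used IGHJ4 in 26.6% and IGHJ3 in 42.2% of its 199 LG clonotypes, of which 113 came from PBS-T mouse 5. Without that mouse the values were 31.4 and 40.7% of 86 clonotypes. IGHV5-16 used IGHJ1 in 19.6% in the LG, and in 21.1% without that mouse. The sets share mice, and a clonotype can be in several.

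**Figure D4:**
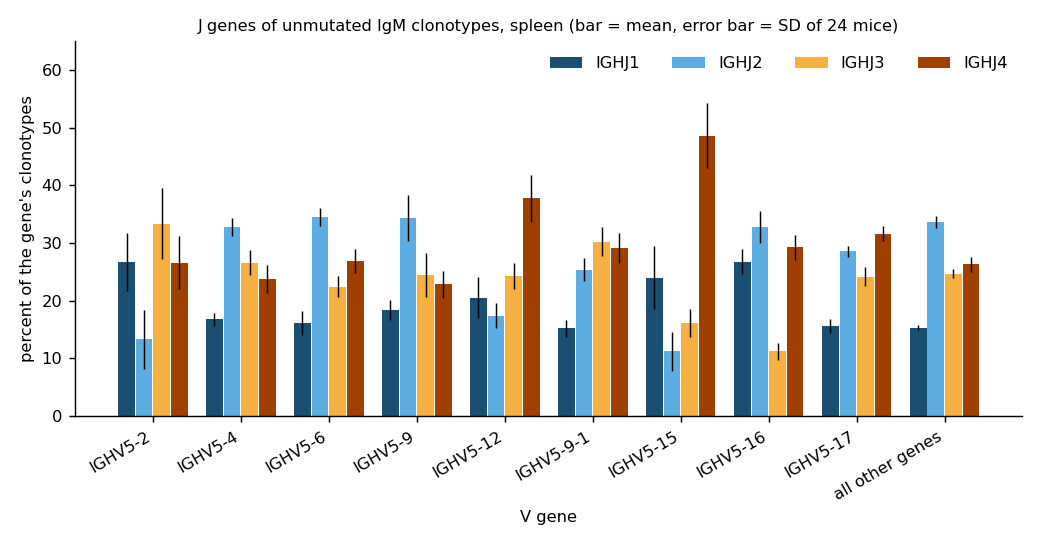
Percent of clonotypes joined to each of IGHJ1 to IGHJ4 for each IGHV5 member, the family and all other genes, in unmutated spleen IgM; values are means over 24 mice. IGHV5-15 is highest for IGHJ4 at 48.6% and IGHV5-16 lowest for IGHJ3 at 11.2%.

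The mutation load of the family's IgA clonotypes was taken as the mean number of V mismatches per clonotype. It was lower in the LG of both NOD-FMT and PBS-T mice than in that of NC mice. It was 0.872 ± 0.45 in NOD-FMT (0.129, 0.797 and 1.67), 1.47 ± 0.50 in PBS-T (0.831, 1.31 and 2.40) and 2.53 ± 0.36 in NC, whose mice were at 2.67, 2.20, 2.79, 2.90 and 2.09. Each NOD-FMT mouse was below each NC mouse, while NOD-FMT and PBS-T overlapped. These values rested on 17 to 128 family IgA clonotypes per LG, and on 869 in PBS-T mouse 5, which had the highest value of its group.

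The difference of NOD-FMT from PBS-T was −0.594 (p = 0.0142, exact permutation test) and did not pass adjustment over its 4 tests (adjusted p = 0.0569). That of NOD-FMT from NC was −1.66 (exact permutation p = 0.000333, the smallest that 3003 splits allow, adjusted p = 0.0120 over 36 tests) and that of PBS-T from NC −1.07 (exact permutation p = 0.00200, adjusted p = 0.0150). The comparisons with NC were added after the data had been seen, and no alternative setting was run for them. NC mice were not treated, so the parts of the treatment cannot be told apart in them. In a further comparison that was not planned, PBS-T mice 2 and 9, whose LG held little IgA, were left out. NOD-FMT then differed from PBS-T by −0.702 (exact permutation p = 0.00951, not adjusted). The mice left out, at 0.921 and 1.25, lay below the mean of their group, 1.47, so leaving them out widened the difference. Weighted by counts the difference was −0.417 (exact permutation p = 0.177).

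IgA clonotypes of all other genes were at 1.83 in NOD-FMT, 2.33 in PBS-T and 2.88 in NC in the LG. For these genes NOD-FMT less NC was −1.05 (exact permutation p = 0.00833, adjusted p = 0.0428 over the 36 tests), while NOD-FMT less PBS-T, −0.493 (exact permutation p = 0.102, adjusted p = 0.262), and PBS-T less NC, −0.552 (exact permutation p = 0.0839, adjusted p = 0.233), did not pass. Set against these within each library, the family differed between NOD-FMT and PBS-T by −0.101 (exact permutation p = 0.559), and between NOD-FMT and NC by −0.614 (exact permutation p = 0.00233, adjusted p = 0.0150). Between PBS-T and NC the corresponding value was of similar size, −0.513, and did not pass (exact permutation p = 0.0519, adjusted p = 0.187). In the spleen the family's IgA clonotypes held 2.10 ± 0.32 mismatches in NOD-FMT, 1.81 ± 0.32 in PBS-T and 2.57 ± 0.35 in NC. The NC spleens were at 2.71, 2.75, 1.94, 2.71 and 2.76. There NOD-FMT was above PBS-T by 0.295 (exact permutation p = 0.0601, adjusted p = 0.112). PBS-T less NC was −0.766 (exact permutation p = 0.00250, adjusted p = 0.0150 over 36 tests), and NOD-FMT less NC, −0.470, did not pass (exact permutation p = 0.0246, adjusted p = 0.0986). All other genes, at 3.31, 3.09 and 4.02, were below NC in both groups (exact permutation, adjusted p = 0.0120 for each). Set against them in the spleen, the family differed from NC by 0.240 in NOD-FMT (exact permutation p = 0.246) and by 0.166 in PBS-T (exact permutation p = 0.472), on the other side of 0 from the LG. In a comparison that was not planned, the gap between LG and spleen differed between NOD-FMT and PBS-T by −0.889 (exact permutation p = 0.00312, adjusted p = 0.00935 over 3 quantities). In a comparison added after the data had been seen, that gap differed for all other genes by −0.715 (exact permutation p = 0.0388), and for the family set against them by −0.175 (exact permutation p = 0.479).

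**Figure D5:**
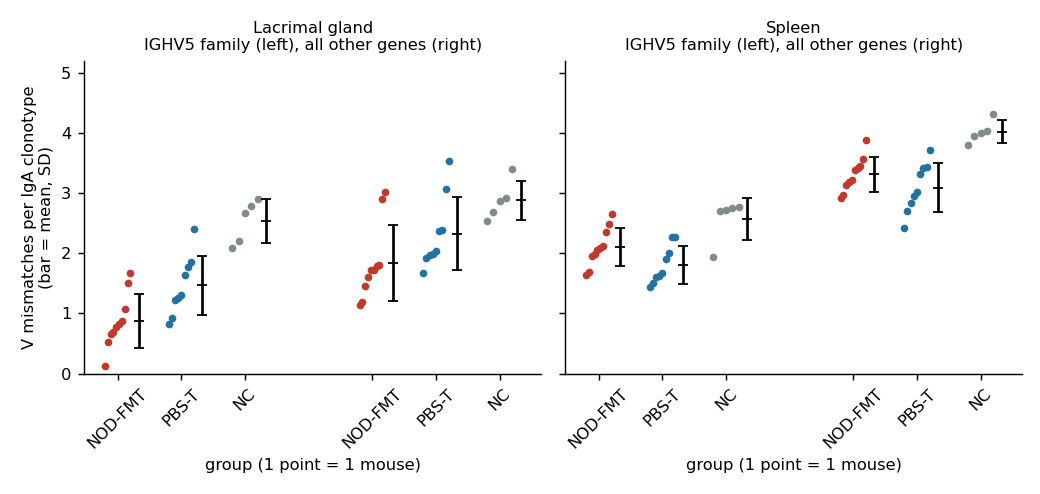
Mean V mismatches per IgA clonotype of the IGHV5 family and of all other genes in the LG and the spleen, with 1 point per mouse by group and a bar at the mean. In the LG the family's points lie at 0.129 to 1.67 in NOD-FMT, at 0.831 to 2.40 in PBS-T and at 2.09 to 2.90 in NC.

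Counts, which follow expansion and RNA content as well as the number of clonotypes, showed single clonotypes that made up much of the family. The family took 1.15 to 25.8% of LG counts (median 5.33%) and 4.68 to 16.6% of spleen counts (median 7.25%). Its largest clonotype held a median of 31.2% of the family's counts in the LG (4.05 to 86.7%) and 5.11% in the spleen (1.49 to 57.2%). The 5 largest of the LG and the 3 largest of the spleen are shown by the nucleotides of HCDR3 because each is a set of cells that took a large part of 1 library. Capitals mark the leading bases that match the germline V end given above.
IGHV5-16 and IGHJ4, LG of NOD-FMT mouse 4: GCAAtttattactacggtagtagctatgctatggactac
IGHV5-9 and IGHJ2, LG of NC mouse 2: GCAAGACAtgatggttactactttgactac
IGHV5-16 and IGHJ2, LG of PBS-T mouse 3: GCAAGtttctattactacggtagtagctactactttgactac
IGHV5-12 and IGHJ4, LG of NOD-FMT mouse 5: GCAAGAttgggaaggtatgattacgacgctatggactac
IGHV5-17 and IGHJ3, LG of NOD-FMT mouse 7: GCAAGGtcggggtttgcttac
IGHV5-4 and IGHJ4, spleen of NOD-FMT mouse 8: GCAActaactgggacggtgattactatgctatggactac
IGHV5-17 and IGHJ4, spleen of NC mouse 2: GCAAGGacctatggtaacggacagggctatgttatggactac
IGHV5-17 and IGHJ1, spleen of PBS-T mouse 1: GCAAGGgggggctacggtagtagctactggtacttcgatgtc

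The largest, IGHV5-16 with IGHJ4 in the LG of NOD-FMT mouse 4, took 22.4% of that library's 58841 counts (95% Wilson interval 22.1 to 22.7%). It consisted of 231 sequences, all IgA, of which 55 were unmutated, with 0.0204 V mismatches per count on average. In the spleen of the same mouse it had 63 of 323140 counts, or 0.0195%. The clonotype of IGHV5-9 with IGHJ2 in NC mouse 2 took 6.83% (6.64 to 7.03%) with 0.0416 mismatches, and its HCDR3 kept all 8 germline bases of IGHV5-9. The clonotype of IGHV5-16 with IGHJ2 in PBS-T mouse 3 took 6.05% (5.82 to 6.29%) and differed from these in being mutated, with 2.02 mismatches and 0 of 77 sequences unmutated.

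In NOD-FMT mouse 5 a clonotype of IGHV5-12 with IGHJ4 took 3.58% (3.48 to 3.68%) with 0.0540 mismatches, and in NOD-FMT mouse 7 one of IGHV5-17 with IGHJ3, whose HCDR3 had 7 amino acids, took 3.51% (3.44 to 3.58%) with 0.0328. Thus 4 of these 5 LG clonotypes were close to germline. In the spleen the IGHV5-4 clonotype of NOD-FMT mouse 8 took 8.84% (8.75 to 8.92%), was 54.6% IgA and had 8 of 92606 counts in the LG of that mouse. The IGHV5-17 clonotype of NC mouse 2 took 2.17% (2.07 to 2.27%), was 98.4% IgA and carried 3.05 mismatches. The IGHV5-17 clonotype of PBS-T mouse 1 took 1.63% (1.59 to 1.68%), was 65.4% IGHG2C with 0.0507 mismatches, and had 0 of 42092 counts in the LG, which allows a share of up to 0.00713%.

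Clonotypes of the family were found in 2 or more mice at a share near that of the others, and in 12 or more spleens at a lower share, after the filter on sequences common to 3 or more mice. In the spleen 5.72% of the family's distinct clonotypes were found in 2 or more mice, beside 6.08% for the other genes, and the member values ran from 2.52% in IGHV5-15 to 6.94% in IGHV5-16 and 7.91% in IGHV5-17. Of the 20 family clonotypes found in 12 or more spleens, 11 used IGHV5-17, and the most shared was in 21 mice. These 20 were 0.00850% of the family's clonotypes, while 607 clonotypes of the other genes, or 0.0208%, were found as widely. In the LG 7.01% were found in 2 or more mice, beside 5.94%. Of the LG clonotypes of the family a mean of 35.5 ± 15.9% were also in the spleen of the same mouse, and of those of the other genes 33.1 ± 12.8%. These shares depend on depth, which differed between libraries as given above, and were not tested.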

How the data were processed

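BCR heavy-chain RNA of the LG and the spleen was amplified with V primers and isotype primers that carry a unique molecular identifier (UMI), 1 library per tissue of each of 24 mice. Per the methods, the authors joined read pairs with PEAR, grouped reads that share a UMI through Clustal Omega, dropping groups of 1 read, and passed the consensus sequences to IgBLAST, taking isotypes from IMGT constant genes. The deposited counts are the number of consensus sequences per unique productive sequence and were not normalized. The deposited fraction is that count over the library total, set by the authors, and was not used in tests. The deposited score is the number of mismatches to the germline V gene as the authors assigned it. The submitters' processing notes name mm10, and the release of the germline set was not given in the sources used here.

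Nucleotide sequences that recurred in 3 or more mice of the same tissue were removed. This follows the wording of the study's contamination filter but took out a larger part of the counts than the study states, so it is not the same filter. Clonotypes were counted per V gene and J gene (names before the asterisk) and HCDR3 amino acids. After the filter, counts ranged from 40105 to 264365 per LG library and reached 71859 to 2032338 in the spleen. Numbers of clonotypes per V gene were compared with edgeR 4.0.16 in R 4.3.3 (quasi-likelihood test, total clonotypes as library size, genes with at least 20 clonotypes, Benjamini-Hochberg adjustment over all genes, threshold 0.05), with the mouse as block for comparisons within mice. Single values were compared by exact permutation over mice, and within 24 mice by sign flips, with SciPy 1.17.1 and NumPy 2.4.6 in Python 3.11.15. Tables were made with pandas 2.3.3 and plots with matplotlib 3.10.9. Scripts were tested on simulated data. Wilson intervals are at 95%, the limit for a count of 0 is 3 counts, and both cover counting error only. Positions of the V genes come from GENCODE M21 on GRCm38, by symbol.

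Alternatives were no filter, removal of sequences in 2 or more mice, counts in place of clonotypes, clonotypes of at least 2 counts, TMM, DESeq2 1.42.0, no filter on low numbers, the replicate block and leaving out replicates. Each replicate was left out in turn for comparisons between groups. Comparisons of V mismatches or HCDR3 length with NC were an exception, and had no alternative run. Between tissues only PBS-T mouse 5, or PBS-T mice 2 and 9, were left out. All 9 members were named in each comparison, IGHV2 genes by counts only, and the 5 largest LG and 3 largest spleen clonotypes by their percent of counts. The members, lists and tests were chosen with earlier results of these data known. The 11 LG libraries whose files carry a mark of merging were kept in, and what was merged was not given in the sources used here.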

Additional observations from a re-analysis of the deposited data

Results flagged for a closer look

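Among 78 groups of 5 to 10 mice, 19 had a mouse far from the rest by Dixon's test at 95%. Its rate of about 1 in 20 holds for independent, normally distributed values. The groups share mice and overlapping quantities, so the count cannot be set against that rate. By counts, the family stood out in the LG of NOD-FMT mouse 4 (25.8%) and NC mouse 2 (11.02%) and in the spleens of NOD-FMT mouse 8 (15.4%) and NC mouse 2 (16.6%). These 4 libraries hold large clonotypes described above, of IGHV5-16, IGHV5-9, IGHV5-4 and IGHV5-17 in that order. The clonotypes held 86.7, 62.0, 57.2 and 13.1% of the family's counts. Most of the family's share in the spleen of NC mouse 2 thus lay outside its largest clonotype.

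Several LG members stood out by clonotypes in 1 mouse of the NOD-FMT group. IGHV5-16 made up 3.53% in NOD-FMT mouse 4, IGHV5-12 made up 1.90% in NOD-FMT mouse 5, IGHV5-9 and IGHV5-15 made up 1.45% and 0.527% in NOD-FMT mouse 3, and IGHV5-2 made up 0.280% in NOD-FMT mouse 8. In the PBS-T group IGHV5-4 made up 3.59% in the LG of mouse 9, where IgA was 13.9% of counts, and IGHV5-2 made up 0.324% in that of mouse 7. In NOD-FMT mice 4, 5 and 3, IGHV5-16, IGHV5-12 and IGHV5-9 also held the family's largest LG clonotype, at 22.4, 3.58 and 3.37% of counts. IGHV5-4 did so in PBS-T mouse 9, at 2.75%. IGHV5-15 and IGHV5-2 did not in the mice named. Whether variants of these clonotypes raised the shares was not tested.

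In the spleen, IGHV5-17 was high in NOD-FMT mouse 2 (3.51%) and NC mouse 2 (3.81%), IGHV5-6 in NC mouse 2 (1.53%) and IGHV5-9 in PBS-T mouse 2 (0.530%). Mean HCDR3 length of the family was the lowest of its group in NOD-FMT mouse 2 (11.45 amino acids), PBS-T mouse 7 (11.51) and NC mouse 2 (11.497). In these 3 spleens HCDR3 of all other genes was the shortest of each group as well (10.99, 11.24 and 11.04). IgA V mismatches per clonotype were low in the spleen of NC mouse 3 (1.94).

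The difference of NOD-FMT from PBS-T in IgA V mismatches of the family was not the same in both tissues. This comparison was not planned. The LG difference less the spleen difference was −0.889 mismatches per clonotype (exact permutation p = 0.00312, adjusted p = 0.00935 over 3 quantities), while that for HCDR3 length was −0.390 amino acids (exact permutation p = 0.126) and that for the family's share was 0.0425 percentage points (exact permutation p = 0.945). For all other genes the difference was −0.493 in the LG (exact permutation p = 0.102, adjusted p = 0.262 over 36 tests) and 0.221 in the spleen (exact permutation p = 0.190, adjusted p = 0.429), neither of which passed, and the gap was −0.715 (exact permutation p = 0.0388). The family set against the other genes had a gap of −0.175 (exact permutation p = 0.479).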

How the results depend on the processing

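The absence of member calls between groups held under each alternative run. Over all genes of the LG the calls moved from 7 to 0 for NOD-FMT against NC with TMM or over counts, and from 4 to 0 for NOD-FMT against PBS-T over counts or with the replicate block. The family share of NOD-FMT less PBS-T, near 0 throughout, changed sign in the LG with clonotypes of at least 2 counts (−0.114), with the LG libraries without a mark of merging (−0.172), with IgA alone (−0.189) and with the replicate block (−0.0685), and in the spleen with the block (−0.00694). Leaving out each replicate in turn, this difference ranged from −0.172 to 0.352 in the LG and from −0.130 to 0.215 in the spleen. NOD-FMT less NC ranged from −0.232 to 0.677 and from −0.340 to 0.259, and PBS-T less NC from −0.310 to 0.600 and from −0.375 to 0.224. The share of the LG against the spleen lost its call over counts (−1.173) and over clonotypes of at least 2 counts (−0.201), and was −0.668 without PBS-T replicate 5.

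The LG difference in IgA V mismatches passed an unadjusted 0.05 with each replicate left out in turn (−0.683 to −0.477), but not weighted by counts (−0.417, exact permutation p = 0.177) or with the replicate block (−0.584, exact sign-flip p = 0.0664). The spleen difference ranged from 0.235 to 0.353, passed unadjusted without PBS-T replicate 2 or 4, without the contamination filter (0.302) and with the block (0.296), and changed sign weighted by counts (−0.160). HCDR3 length in the LG passed unadjusted with clonotypes of at least 2 counts (−0.607). It also did so without NOD-FMT replicate 2 or 10 or PBS-T replicate 8. With 1 replicate left out it ranged from −0.480 to −0.280. In the spleen it ranged from −0.0446 to 0.0508 and changed sign with clonotypes of at least 2 counts (−0.170) and weighted by counts (−0.286). Replicate numbers are shared by the groups, but samples with the same number showed no common direction (correlations −0.290 to 0.281 in the LG and −0.667 to 0.727 in the spleen, 9 pairs each). Spleen pairs 5 and 7 were alike, at 0.727 and 0.675, while others went opposite ways, so the block was an alternative only. For comparisons within mice, where the block is the mouse, its removal added IGHV5-2 for the LG (−0.71) and IGHV5-9 for IgG (0.48) and lost no call.

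Of the settings run for the 24 member calls, 205 kept the call, 13 lost it and 4 changed sign. With clonotypes of at least 2 counts, 3 members were called for IgA against unmutated IgM, and IGHV5-6 (0.16) and IGHV5-15 (0.45) changed sign there, as did IGHV5-6 for IgG (0.40). Over counts, 2 members were called for IgG, 7 for the LG and 4 for LG IgA, and IGHV5-9 changed sign in the LG (−0.50). The cause was not tested. The shares of all genes called in these settings are not given here, so the counts of members cannot be set against them. No sequence was assigned to more than 1 V gene, so the alternative on these gave no value. The LG values rest on few clonotypes, 31 to 1167 of the family per library, which limits what they can show.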
